A study of Homo sapiens with 8 samples.

Results

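The 9 genes described here form a small set around the transcription factor NRF2: its gene NFE2L2, its inhibitor KEAP1, and the oxidative stress genes HMOX1, NQO1, TXNRD1, GCLM, GCLC, SRXN1 and OSGIN1. They were chosen by symbol, through the Ensembl IDs of the raw count table, and are 9 of its 60676 IDs. The RNA came from IGR-N91, a human neuroblastoma cell line, grown as hanging-drop aggregates and exposed to media that had or had not been conditioned by embryonic ganglia. Libraries were made from 50 ng of total RNA and sequenced as 75-base single reads, with 2 libraries in each of 4 groups. Control medium was the same medium kept without tissue. E8-cSGcm was conditioned by sympathetic ganglia of chick embryos at embryonic day 8, and E8-cDRGcm by dorsal root ganglia of chick embryos of the same day. E15.5-mSGcm was conditioned by sympathetic ganglia of mouse embryos at the E15.5 stage. All 8 libraries are from this 1 cell line, and the ganglia themselves were not sequenced. The sample titles name no genetic change. The study's aggregation assays used fluorescent cells, and whether these libraries did is not stated. Nothing in the labels says that the 2 libraries of a group came from separate cultures, so p-values measure only the spread between these libraries, which may be technical.

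NRF2 is a basic leucine zipper factor that pairs with small MAF proteins and binds antioxidant response elements near genes of redox defense. In unstressed cells KEAP1 ties NRF2 to a CUL3 ubiquitin ligase, and NRF2 is degraded. Oxidants and electrophiles modify cysteines of KEAP1, NRF2 protein then accumulates, and its targets supply glutathione, reduce thioredoxin and quinones, and degrade heme. This control acts largely on NRF2 protein, which RNA-seq does not measure.

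Library totals ranged from 7930765 to 15060744 assigned reads, and the E15.5-mSGcm pair was the shallowest at 7930765 and 8937397. At these depths 3 reads correspond to 0.199 to 0.378 CPM. Levels below are CPM, that is counts divided by each library's TMM-scaled total and brought to a common scale. Differences are log2 fold changes from edgeR's quasi-likelihood test with Benjamini-Hochberg adjustment over all 16680 genes tested. A gene was called when its adjusted p was under 0.05 and its fold change at least 1.5. Summed CPM of 9 detected neuroblastoma markers was 6682 to 6833 in control medium and lower in every conditioned medium, at 5171 to 5484 in E8-cSGcm, 3980 to 4063 in E8-cDRGcm and 4147 to 4316 in E15.5-mSGcm, while the tenth marker, CHGA, had no read in any library. MYCN had 333573 reads over all libraries and the next marker, HAND2, 67789. The sum thus largely follows MYCN and does not show that each marker was lower. All 6 fibroblast markers were detected, with sums of 158 to 175 CPM in control medium, 212 to 223 in E8-cSGcm, 194 to 200 in E8-cDRGcm and 162 to 174 in E15.5-mSGcm. Among Schwann cell or glia markers SOX10 and FABP7 were at 0 in all libraries, and the sum was 1.12 to 1.45 CPM in control medium against 2.25 to 4.10 in the conditioned media. Immune markers summed to at most 0.769 CPM, with CD3E and AIF1 at 0, and endothelial markers to at most 1.61 CPM, with CDH5 at 0. The part of these marker levels in the results below was not tested.

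Promoter windows are shown because several of these genes moved together and antioxidant response elements are the known DNA contact of NRF2. RefSeq start sites on GRCh38.p14 gave 11 windows for 8 of the 9 genes (all but HMOX1), each from 250 bases before to 50 bases after a start site. The element core TGACNNNGC was searched on both strands, so that on the opposite strand it reads GCNNNGTCA. Its opening letters TGAC are shared with the AP-1 element TGACTCA. The core was found in 4 of the 11 windows (36.4%), against 4687 of all 35114 promoter windows (13.3%), and these 4 belonged to GCLM, TXNRD1 and KEAP1. By gene it was 3 of 8 (37.5%), against 4384 of 27303 genes (16.1%). The set was chosen around NRF2, so these shares describe the choice of genes and not the media. Capitals in the following lines, written 5′ to 3′ on the gene's own strand, mark the matches.
GCLM promoter, chr1:93909381-93909680, minus strand: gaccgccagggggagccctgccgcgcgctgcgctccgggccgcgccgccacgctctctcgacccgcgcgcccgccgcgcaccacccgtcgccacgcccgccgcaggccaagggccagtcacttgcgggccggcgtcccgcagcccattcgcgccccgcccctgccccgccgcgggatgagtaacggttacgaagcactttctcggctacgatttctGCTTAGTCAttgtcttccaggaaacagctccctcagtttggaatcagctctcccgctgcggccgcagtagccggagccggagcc
TXNRD1 promoter, chr12:104215529-104215828, plus strand: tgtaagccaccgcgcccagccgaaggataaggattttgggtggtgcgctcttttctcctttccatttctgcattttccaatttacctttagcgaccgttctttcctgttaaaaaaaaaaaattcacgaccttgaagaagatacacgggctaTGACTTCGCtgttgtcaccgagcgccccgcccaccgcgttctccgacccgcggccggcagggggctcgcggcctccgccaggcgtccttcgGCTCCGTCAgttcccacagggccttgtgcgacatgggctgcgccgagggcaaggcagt
TXNRD1 promoter, chr12:104286782-104287081, plus strand: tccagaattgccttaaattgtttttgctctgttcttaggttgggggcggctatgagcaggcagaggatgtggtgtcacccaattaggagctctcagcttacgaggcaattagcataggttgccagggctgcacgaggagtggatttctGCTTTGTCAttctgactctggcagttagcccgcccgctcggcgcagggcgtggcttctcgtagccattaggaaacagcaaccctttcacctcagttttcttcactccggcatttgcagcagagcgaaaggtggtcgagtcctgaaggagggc
KEAP1 promoter, chr19:10502722-10503021, minus strand: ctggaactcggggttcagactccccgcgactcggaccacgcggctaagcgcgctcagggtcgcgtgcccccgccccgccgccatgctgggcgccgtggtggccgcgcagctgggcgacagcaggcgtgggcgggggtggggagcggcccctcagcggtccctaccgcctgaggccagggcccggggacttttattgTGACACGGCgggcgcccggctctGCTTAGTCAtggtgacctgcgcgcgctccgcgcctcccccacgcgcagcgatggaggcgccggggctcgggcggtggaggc
In the GCLM window the match GCTTAGTCA began at position -34 from the start site. The same letters stood at position -31 of the KEAP1 window, which also held TGACACGGC at -54. The first TXNRD1 window held TGACTTCGC at -99 and GCTCCGTCA at -8, and the other TXNRD1 window, at a start site further along the gene, held GCTTTGTCA at -102. No match lay in the windows of NFE2L2, NQO1, GCLC, SRXN1 or OSGIN1, which says only that these letters are absent from these 300 bases. GCLM and TXNRD1 were among the genes higher in E8-cDRGcm, whereas KEAP1, with 2 matches in its window, was lower there than in control medium, under the fold threshold. No binding of NRF2 was measured.

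Of the 9 genes, 6 rose in E8-cDRGcm against control medium (9.81% of all tested genes rose there), 3 rose in E8-cSGcm (4.73%), and 0 were called in E15.5-mSGcm (13.9% called). HMOX1 had the largest fold change among members with more than 10 reads in every library, at 5.75-fold (95% interval 4.35 to 7.59, n = 2 and 2) in E8-cDRGcm and 2.76-fold (2.01 to 3.79) in E8-cSGcm. NQO1 rose in both chick media, while GCLM, TXNRD1 and SRXN1 were called in E8-cDRGcm alone among the 3 comparisons with control. OSGIN1 was called in both chick media on counts of 1 to 31 reads, and it passed the filter on low counts through these media alone. Without OSGIN1, 5 of 8 genes rose in E8-cDRGcm and 2 of 8 in E8-cSGcm. KEAP1 was the member with the lowest fold change in both chick media and was not called there. These 3 comparisons share the 2 control libraries. In bulk RNA a gene's change can reflect less RNA per cell or fewer cells of a type, which cannot be told apart.

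**Figure D1:**
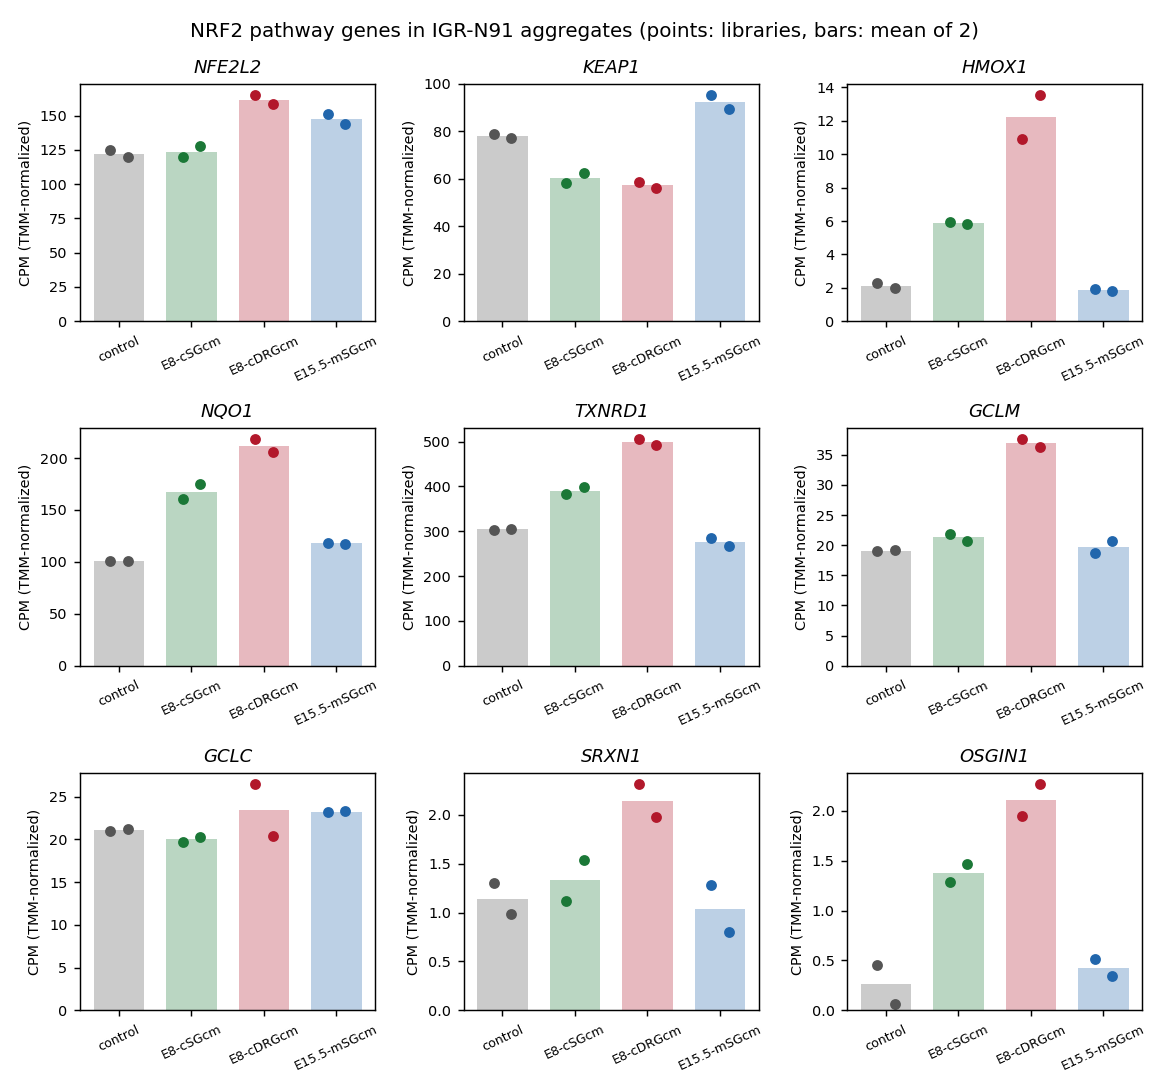
CPM of each of the 9 genes in every library, 1 panel per gene, with points for the 2 libraries of each medium and a bar at their mean. HMOX1, NQO1, GCLM and TXNRD1 are highest in both E8-cDRGcm libraries, and GCLC stays between 19.7 and 26.5 CPM throughout.

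NFE2L2 (ENSG00000116044, chr2:177230303-177264727 on GRCh38.p14, minus strand) encodes NRF2 itself. Its level was 124.7 and 119.5 CPM in the control libraries and 119.5 and 127.6 in E8-cSGcm. It was 165 and 158.1 CPM in E8-cDRGcm and 150.8 and 143.6 in E15.5-mSGcm. E8-cDRGcm and E15.5-mSGcm thus lay above both other groups without overlap, and E8-cSGcm overlapped control. The log2 fold change against control was 0.40 ± 0.05 (SE) in E8-cDRGcm with an edgeR adjusted p of 9.77e-08 and 0.27 ± 0.06 in E15.5-mSGcm with 2.67e-04, both under the fold threshold, and 0.02 in E8-cSGcm with an adjusted p of 0.849. The transcript thus differed from control by at most 1.32-fold, including in E15.5-mSGcm, where no enzyme of the set was called. NFE2L2 shares 3509 exonic bases with HNRNPA3 on the opposite strand, and whether counting used strand is not given in the sources used here. It also shares 2037 exonic bases with the same-strand lncRNA ENSG00000213963, which had 101 reads in all libraries. HNRNPA3 was lower than control in all 3 media (log2 -0.17, -0.38 and -0.48 in E8-cSGcm, E8-cDRGcm and E15.5-mSGcm).

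KEAP1 (ENSG00000079999, chr19:10486125-10503356, minus strand), the ligase adaptor that holds NRF2 low, showed another order. It stood at 78.9 and 77.2 CPM in control, 58.2 and 62.3 in E8-cSGcm, 58.6 and 56.1 in E8-cDRGcm and 95.3 and 89.3 in E15.5-mSGcm. The chick media overlapped each other and lay below control, and E15.5-mSGcm lay above it. Against control the log2 fold changes were -0.37 ± 0.07 in E8-cSGcm (edgeR adjusted p = 2.40e-05), -0.45 ± 0.07 in E8-cDRGcm (4.54e-07) and 0.24 ± 0.07 in E15.5-mSGcm (0.00345), none reaching the fold threshold. Between media KEAP1 was called, at 1.61-fold higher in E15.5-mSGcm than in E8-cDRGcm (adjusted p = 6.49e-11) and 1.53-fold higher than in E8-cSGcm (1.31e-09). The latter stood just over the fold threshold and dropped under it, to a log2 of 0.55 to 0.56, with a looser count filter or without replicate 1 of either group.

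HMOX1 (ENSG00000100292, chr22:35381096-35394207, plus strand) encodes heme oxygenase 1, which opens the heme ring to biliverdin, carbon monoxide and iron. Reads numbered 30 and 30 in control, 74 and 83 in E8-cSGcm, 146 and 185 in E8-cDRGcm and 15 and 16 in the shallower E15.5-mSGcm libraries. In CPM these were 2.29 and 1.97, 5.93 and 5.81, 10.9 and 13.6, and 1.92 and 1.83. Control and E15.5-mSGcm were lowest, E8-cSGcm intermediate and E8-cDRGcm highest, with no overlap between any pair of groups. The log2 fold change against control was 1.46 ± 0.23 in E8-cSGcm (edgeR adjusted p = 3.05e-06) and 2.52 ± 0.20 in E8-cDRGcm (2.27e-13), where HMOX1 ranked 67 of 16680 genes from the top by fold change. In E15.5-mSGcm it was -0.18 ± 0.32 (adjusted p = 0.707), with a 95% interval of the fold from 0.559 to 1.39. HMOX1 was also 2.08-fold higher in E8-cDRGcm than in E8-cSGcm (adjusted p = 4.45e-06). HMOX1 stands in a list of upregulated genes that the study drew from transcripts changed alike in all 3 media of these same libraries. The study then narrowed that list on patient cohorts. The direction of HMOX1 in the chick media is thus not independent evidence for the list, and in E15.5-mSGcm HMOX1 was not called here.

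NQO1 (ENSG00000181019, chr16:69709401-69726560, minus strand), a quinone reductase that uses NADH or NADPH, was abundant enough to be measured tightly. It was at 100.4 and 101.3 CPM in control, 160.3 and 174.9 in E8-cSGcm, 217.9 and 205.8 in E8-cDRGcm and 118.1 and 117.6 in E15.5-mSGcm. The 4 groups did not overlap, and the order was control, E15.5-mSGcm, E8-cSGcm and E8-cDRGcm from low to high. It rose by 0.73 ± 0.06 on the log2 scale in E8-cSGcm (edgeR adjusted p = 5.41e-13) and by 1.07 ± 0.06 in E8-cDRGcm (1.57e-18). The value of 0.22 ± 0.06 in E15.5-mSGcm (adjusted p = 0.00301), a 1.17-fold difference, was under the fold threshold.

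TXNRD1 (ENSG00000198431, chr12:104215779-104350307, plus strand) encodes the cytosolic thioredoxin reductase, a selenoprotein that recharges thioredoxin with NADPH. Its CPM was 303.2 and 304.7 in control, 382.4 and 398.1 in E8-cSGcm, 504.6 and 492 in E8-cDRGcm and 283.8 and 266.5 in E15.5-mSGcm. No groups overlapped, and E15.5-mSGcm was the only medium below control. TXNRD1 rose 1.64-fold in E8-cDRGcm (log2 0.71 ± 0.05, edgeR adjusted p = 3.62e-15). In E8-cSGcm the log2 difference was 0.36 ± 0.05 (2.37e-07) and in E15.5-mSGcm -0.14 ± 0.05 (0.0210), neither reaching the fold threshold.

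GCLM and GCLC encode the modifier and the catalytic subunit of glutamate-cysteine ligase, the rate-limiting enzyme of glutathione synthesis, and they moved differently. GCLM (ENSG00000023909, chr1:93885199-93909430, minus strand) was at 19.0 and 19.3 CPM in control, 21.9 and 20.7 in E8-cSGcm, 37.5 and 36.3 in E8-cDRGcm and 18.7 and 20.7 in E15.5-mSGcm. The E8-cDRGcm pair lay well above the other 6 libraries, which sat close together, and GCLM rose there 1.93-fold (1.70 to 2.19; edgeR adjusted p = 4.74e-11). Its fold was 1.11 (0.966 to 1.28) in E8-cSGcm and 1.03 (0.883 to 1.21) in E15.5-mSGcm. GCLC (ENSG00000001084, chr6:53497341-53545101, minus strand) was at 21.0 and 21.2 CPM in control, 19.7 and 20.3 in E8-cSGcm, 26.5 and 20.4 in E8-cDRGcm and 23.2 and 23.3 in E15.5-mSGcm. The E8-cDRGcm replicates of GCLC lay on either side of control, and no comparison of GCLC was called. Its fold in E8-cDRGcm was 1.11 (0.956 to 1.29), so the interval of GCLC lay below that of GCLM, although the difference between the subunits was not itself tested.

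SRXN1 (ENSG00000271303, chr20:646615-653200, minus strand), the sulfiredoxin that reduces overoxidized peroxiredoxins, was counted 17 and 15 times in control, 14 and 22 in E8-cSGcm, 31 and 27 in E8-cDRGcm and 10 and 7 in E15.5-mSGcm. SRXN1 shares 2292 exonic bases with the protein-coding ENSG00000270299 on the same strand, which had 3 reads in all libraries, and the canonical SRXN1 transcript has 2528 bases. Reads in shared bases may have been assigned to neither gene, which was not tested, so the level of SRXN1 is uncertain. In CPM the E8-cDRGcm pair, at 2.32 and 1.98, lay above the other 6 libraries, which ranged from 0.7997 to 1.54 and overlapped. The call in E8-cDRGcm (log2 0.92 ± 0.36, edgeR adjusted p = 0.0309) was lost with DESeq2 (adjusted p = 0.233) and with reads thinned to 1 depth (0.265). It was also lost without control replicate 2 (log2 0.719), E8-cDRGcm replicate 1 (0.794) or E8-cDRGcm replicate 2 (1.028).

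OSGIN1 (ENSG00000140961, chr16:83953240-83966332, plus strand), known as oxidative stress induced growth inhibitor 1, was close to the detection limit. It had 6 and 1 reads in control, 16 and 21 in E8-cSGcm, 26 and 31 in E8-cDRGcm and 4 and 3 in E15.5-mSGcm, and the 1 read of control replicate 2 was under the 3-read floor. The chick media lay above control and E15.5-mSGcm without overlap. The fitted log2 fold change was 2.43 ± 0.56 in E8-cSGcm (edgeR adjusted p = 9.15e-04) and 3.035 ± 0.52 in E8-cDRGcm (6.32e-06). The 2 control libraries decide these values. Without control replicate 2 the E8-cSGcm value was 1.57 with an adjusted p of 0.0632, and that in E8-cDRGcm 2.174. Without control replicate 1 they were 4.20 and 4.80. OSGIN1 passed the filter on low counts through the chick media alone, so it had to differ in order to be tested. It shares 457 exonic bases with MLYCD on the same strand, whose log2 fold change was 0.16 in E8-cSGcm and 0.36 in E8-cDRGcm.

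In E8-cDRGcm against control medium 6 of 9 genes thus rose, where 9.81% of all tested genes rose, 10.9% fell and 20.7% were called in either direction. In E8-cSGcm 3 of 9 rose, where 4.73% of tested genes rose, 3.86% fell and 8.59% were called. Without OSGIN1 these counts were 5 and 2 of 8. DESeq2 called 5 of the 9 in E8-cDRGcm and 2 of the 9 in E8-cSGcm. In E15.5-mSGcm 0 of 9 were called by edgeR or by DESeq2, where edgeR called 13.9% of tested genes, 6.65% higher and 7.27% lower. There 4 of 9 (NFE2L2, KEAP1, NQO1 and TXNRD1) had an unadjusted edgeR p under 0.05, as did 7568 of all 16680 tested genes. The median log2 fold change of the 8 members without OSGIN1 was 0.20 in E8-cSGcm, 0.81 in E8-cDRGcm and 0.09 in E15.5-mSGcm, beside 0.010, 0.006 and -0.015 over all genes.

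**Figure D2:**
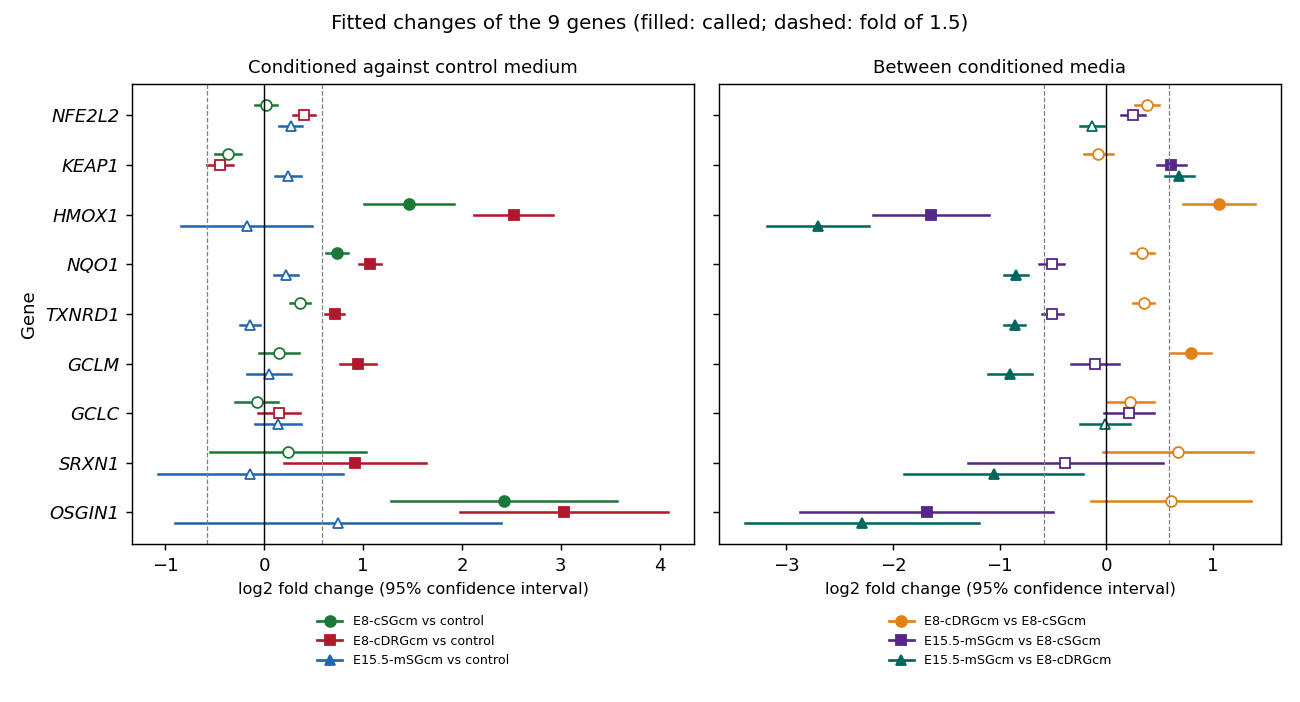
Log2 fold change of each gene against control medium with its 95% interval, for the 3 conditioned media; filled points were called and open points were not. The called points are 3 in E8-cSGcm, 6 in E8-cDRGcm and 0 in E15.5-mSGcm, and the intervals of SRXN1 and OSGIN1 are the widest.

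Direct comparison of the media tested the differences themselves. In E8-cDRGcm against E8-cSGcm, 2 of 9 genes were called, HMOX1 and GCLM, both higher, where 7.49% of tested genes were called, 2.62% higher and 4.87% lower. GCLM was 1.74-fold higher (edgeR adjusted p = 1.14e-08). NQO1 and TXNRD1 were 1.26-fold (5.56e-06) and 1.28-fold (3.66e-07) higher in E8-cDRGcm and NFE2L2 1.31-fold (9.35e-07), all without reaching the fold threshold. OSGIN1 differed by 1.52-fold (0.905 to 2.56) and KEAP1 by 0.950-fold (0.864 to 1.04), so neither order was resolved.

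In E15.5-mSGcm against E8-cDRGcm, 6 of 9 genes were lower and KEAP1 was higher, where 26.2% of tested genes were called, 13.1% in each direction. HMOX1 was 6.51-fold lower in the mouse medium (edgeR adjusted p = 2.55e-12) and OSGIN1 4.89-fold lower (4.89e-04). GCLM was 1.87-fold (1.23e-09), TXNRD1 1.81-fold (2.61e-17), NQO1 1.80-fold (2.44e-15) and SRXN1 2.08-fold (0.0310) lower. Without OSGIN1, 5 of 8 were lower. The SRXN1 call was lost with DESeq2 (0.186), after thinning (0.0683), and without E8-cDRGcm replicate 1 (0.130) or E15.5-mSGcm replicate 2 (0.249). GCLC, at 0.992-fold (0.845 to 1.17), and NFE2L2, at 0.911-fold, were not called.

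In E15.5-mSGcm against E8-cSGcm, the media from sympathetic ganglia of the 2 species, HMOX1 and OSGIN1 were lower and KEAP1 higher, 3 of 9 called where 22.3% of tested genes were, 10.2% higher and 12.1% lower. Without OSGIN1, 1 of 8 was lower and 1 higher. HMOX1 was 3.12-fold lower (edgeR adjusted p = 3.22e-06) and OSGIN1 3.21-fold lower (0.0159). The OSGIN1 call was lost with DESeq2 (0.108) and without E8-cSGcm replicate 2 (0.0646) or E15.5-mSGcm replicate 2 (0.137). NQO1 and TXNRD1 were each 1.42-fold lower in the mouse medium, with adjusted p of 2.59e-09 and 8.96e-11, below the fold threshold. Both media came from sympathetic ganglia, and the species and the embryonic stage of the ganglia differ together here, so their parts cannot be told apart.

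Per kilobase of transcript (RPKM), TXNRD1 was the most abundant of the 9 in control medium at 78.8 ± 0.27 (SD, n = 2), followed by NFE2L2 at 49.9 ± 1.51, NQO1 at 40.0 ± 0.26 and KEAP1 at 30.4 ± 0.47. GCLC at 5.58 ± 0.04 and GCLM at 3.92 ± 0.04 came next, then HMOX1 at 1.37 ± 0.15, SRXN1 at 0.452 ± 0.088 and OSGIN1 at 0.137 ± 0.145. The ranges of SRXN1 and OSGIN1 did not overlap in control medium, and all other neighbors in this order were also apart. The place of SRXN1 is uncertain in every medium, since reads in the bases it shares with ENSG00000270299 may be missing. In E8-cDRGcm the order changed at 3 places, with NQO1 at 84.0 ± 3.37 above NFE2L2 at 66.0 ± 2.00, and HMOX1 at 7.87 ± 1.20 and GCLM at 7.56 ± 0.19 above GCLC at 6.197 ± 1.13. OSGIN1 at 1.10 ± 0.12 also lay above SRXN1 at 0.850 ± 0.095 there, without overlap of their libraries. HMOX1 and GCLM were not separated in that medium, since the HMOX1 libraries, at 7.03 and 8.72 RPKM, lay on either side of the GCLM libraries, at 7.43 and 7.69. HMOX1 remained a low-level transcript beside TXNRD1, at 129.1 ± 2.30 RPKM in E8-cDRGcm.

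**Figure D3:**
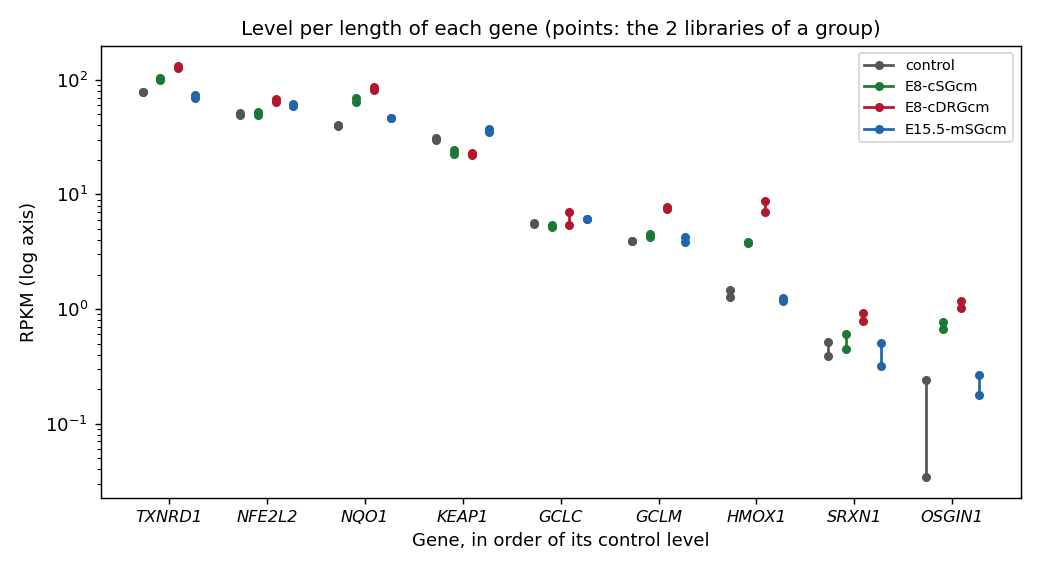
Level of each gene in RPKM on a log axis in the 4 media, with points for the 2 libraries of each. TXNRD1 is the highest and OSGIN1 has the lowest library value, 0.0342 RPKM in control medium.

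The wider pathway was described by 8 gene lists with 98 genes, of which 84 were tested. Of these, 19 rose and 3 fell in E8-cDRGcm (26.2% called, beside 20.7% of all genes), 11 rose and 1 fell in E8-cSGcm (14.3% beside 8.59%), and 7 rose and 8 fell in E15.5-mSGcm (17.9% beside 13.9%). MAFK, NQO2 and GSTM2 passed the filter on low counts through some of the media only. Without them 17 of 81 rose and 3 fell in E8-cDRGcm (24.7% called), 9 rose and 1 fell in E8-cSGcm (12.3%), and 7 rose and 8 fell in E15.5-mSGcm (18.5%). The median log2 fold changes of these 81 were 0.13, 0.12 and -0.08 in that order.

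Heme and iron genes had 4 of 10 tested members higher in E8-cDRGcm, where 9.81% of all tested genes rose. BLVRB, a biliverdin and flavin reductase that acts downstream of heme cleavage, was counted 107 and 88 times in control, 206 and 255 in E8-cSGcm, 293 and 266 in E8-cDRGcm and 61 and 64 in E15.5-mSGcm. It rose by 1.32 ± 0.14 on the log2 scale in E8-cSGcm and by 1.58 ± 0.14 in E8-cDRGcm. The ferritin subunits FTH1 and FTL, which store iron, rose in E8-cDRGcm by 0.86 ± 0.05 and 0.62 ± 0.05, and ABCB6, a porphyrin transporter, by 1.07 ± 0.25. Ferritin genes have many processed pseudogenes, so their counts are uncertain. In E15.5-mSGcm ALAS1, the first enzyme of heme synthesis, rose by 0.77 and TFRC, the transferrin receptor, by 0.68, while the heme transporter SLC48A1 fell by 0.85.

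NADPH-producing enzymes feed NQO1, TXNRD1 and glutathione reductase. IDH1, the cytosolic isocitrate dehydrogenase, rose by 0.64 ± 0.06 on the log2 scale in E8-cSGcm and by 0.97 ± 0.06 in E8-cDRGcm, and ME1, malic enzyme, rose by 0.94 ± 0.05 in E8-cDRGcm. In E15.5-mSGcm 0 of the 7 tested genes of this list were called by edgeR or DESeq2, where edgeR called 13.9% of all tested genes. At an unadjusted p under 0.05, 3 of the list were higher there and 4 lower, where 7568 of all 16680 tested genes were at that p.

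Glutathione genes were mixed. The share called was 8.33%, 16.7% and 20.8% in E8-cSGcm, E8-cDRGcm and E15.5-mSGcm, beside 8.59%, 20.7% and 13.9% of all tested genes. In E8-cDRGcm 3 of 24 rose and 1 fell: both chains of the cystine transporter, SLC7A11 by 0.71 ± 0.07 and SLC3A2 by 0.94 ± 0.06, and the glutathione reductase GSR by 0.61 ± 0.05 rose, and the microsomal transferase MGST2 fell by 1.16. In E8-cSGcm MGST1 rose by 0.60 and the glutathione-degrading enzyme CHAC1 fell by 0.64. In E15.5-mSGcm glutaredoxin, GLRX, rose by 1.77 ± 0.08, and CHAC1 fell by 2.098 ± 0.14, MGST1 by 0.79, GSTM4 and GSTA4 among 4 that fell. GSTM4 has close paralogs that can share reads.

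Of the 16 tested thioredoxin, peroxiredoxin and related genes, 0 rose in either chick medium by edgeR or DESeq2. By edgeR 4.73% of all tested genes rose in E8-cSGcm and 9.81% in E8-cDRGcm. At an unadjusted p under 0.05, 3 of the 16 were higher and 5 lower in E8-cSGcm, and 3 were higher and 8 lower in E8-cDRGcm. Of all 16680 tested genes 6727 were at that p in E8-cSGcm, 9090 in E8-cDRGcm and 7568 in E15.5-mSGcm. PRDX3, the mitochondrial peroxiredoxin, and MSRB1, a methionine sulfoxide reductase, fell in E8-cDRGcm by 0.70 and 0.61. In E15.5-mSGcm SESN3 rose by 1.15, and SESN2 and TXNIP, a thioredoxin-binding protein, fell by 1.00 and 0.85. Of the superoxide and peroxide enzymes, 2 were tested and 0 called in any medium against control by edgeR or DESeq2, with 1 at an unadjusted p under 0.05 in each medium.

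Among 11 tested NRF2 regulators and partners, MAFK, BACH2 and NFE2L1 rose in both chick media, where DESeq2 called 2 of the list in each. The share of all tested genes that rose was 4.73% in E8-cSGcm and 9.81% in E8-cDRGcm. NFE2L1, a relative of NRF2, rose by 0.60 ± 0.05 in E8-cSGcm and 0.97 ± 0.05 in E8-cDRGcm. In E15.5-mSGcm its value was 0.28 and it was not called. Like HMOX1, NFE2L1 stands in the study's list of upregulated genes drawn from these same libraries. Its direction in the chick media is thus not independent evidence for that list. BACH2, of the BACH family that also pairs with small MAF proteins, rose by 0.66, 0.80 and 0.79 in E8-cSGcm, E8-cDRGcm and E15.5-mSGcm. MAFK, a small MAF partner, had 2 and 5 reads in control, 13 and 15 in E8-cSGcm, 11 and 15 in E8-cDRGcm and 1 and 3 in E15.5-mSGcm, and like OSGIN1 entered the test through the chick media. SQSTM1, which binds KEAP1, was counted 1 to 5 times per library and HMOX2, the constitutive heme oxygenase, at most 1 time, so neither could be compared. Whether the counting missed reads of these genes, or of CHGA, was not tested, and their low counts are not read as low expression.

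Quinone and aldehyde detoxification had 1 of 9 higher in E8-cSGcm, 3 in E8-cDRGcm and 2 in E15.5-mSGcm. Among all tested genes 4.73%, 9.81% and 6.65% rose in these media. NQO2, a relative of NQO1, had 16 and 8 reads in control, 60 and 46 in E8-cSGcm, 44 and 46 in E8-cDRGcm and 9 and 3 in E15.5-mSGcm, and it too was tested through the chick media alone. AKR1C3 rose by 2.20 ± 0.28 in E8-cDRGcm and 1.17 ± 0.36 in E15.5-mSGcm and AKR1C1 by 0.80 in E8-cDRGcm, with the caution that AKR1C genes are near-identical. AKR1B1, aldose reductase, rose by 1.58 ± 0.11 in E15.5-mSGcm.

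ATF4, another stress factor, shares the target SLC7A11 with NRF2, and its list was set beside the NRF2 genes for that reason. In E8-cDRGcm 4 of 8 rose, where 9.81% of all tested genes did. These were ASNS by 2.82 ± 0.14, TRIB3 by 2.49 ± 0.09, DDIT3 by 1.74 ± 0.11 and SLC7A11. CHAC1 and SESN2 were lower than control there, at log2 -0.40 and -0.19, without being called. In E8-cSGcm ASNS, TRIB3 and DDIT3 rose by 1.56, 1.11 and 1.01, while CHAC1, itself a target of this pathway, fell. SESN2 was lower there at log2 -0.45, under the fold threshold. Among all tested genes 4.73% rose there and 3.86% fell. In E15.5-mSGcm 3 of 8 fell, CHAC1, SESN2 and ASNS, where 7.27% of all tested genes fell. None of the list, 0 of 8, rose there by edgeR or DESeq2, nor was any higher at an unadjusted p under 0.05. At that p 6 were lower, where 7568 of all 16680 tested genes differed in either direction. Some members of this list thus rose in the same chick media as HMOX1, while CHAC1 and SESN2 were lower there. The part of either factor was not tested.

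**Figure D4:**
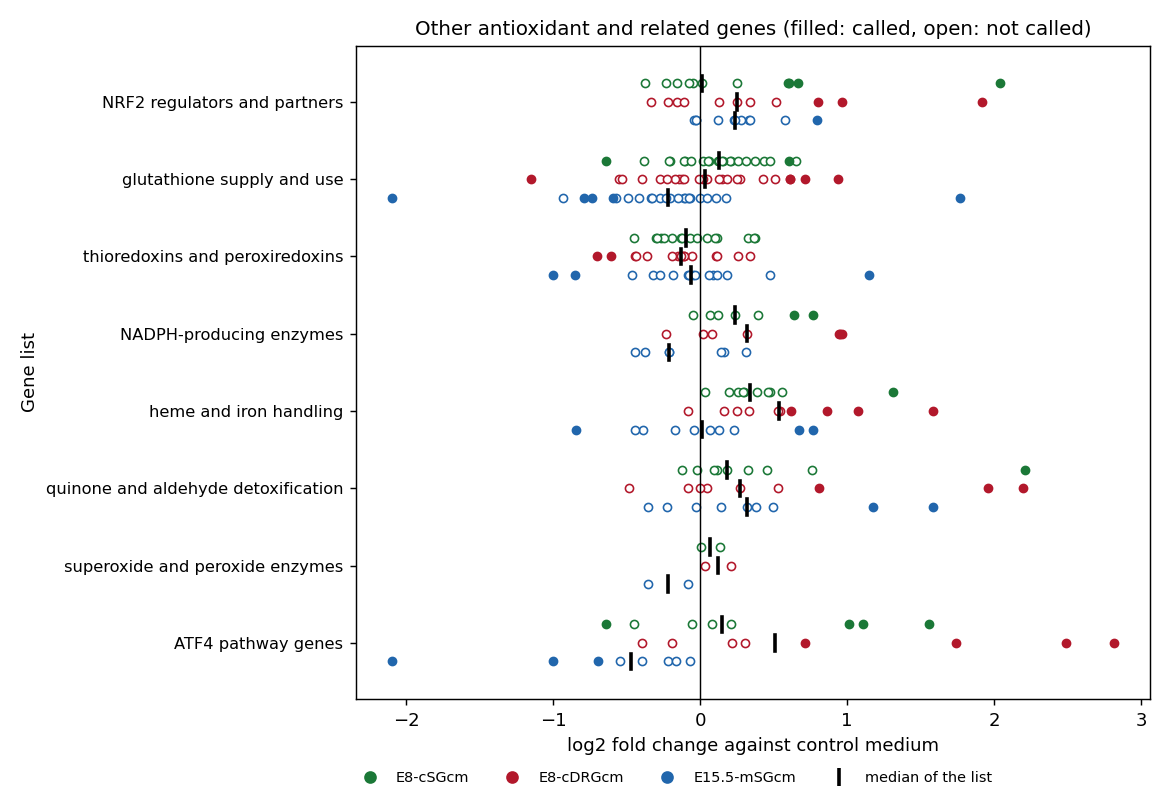
Log2 fold change against control medium of the tested genes of 8 lists, colored by medium, with filled points for called genes and a bar at each list's median. The highest point is ASNS in E8-cDRGcm at 2.82 and the lowest is CHAC1 in E15.5-mSGcm at -2.098, which stands in 2 lists.

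Across the 8 libraries the gene whose log2 CPM followed HMOX1 most closely was FTH1, with Pearson's r of 0.999, followed by ITGA5 and GARS1. For NQO1 it was CYSTM1 (0.993), for TXNRD1 STIM1 (0.999), for GCLM KMT2B (0.996) and for KEAP1 FAM91A1 (0.995). Nearest to NFE2L2 stood CARD8 (0.992), to OSGIN1 DOT1L (0.990), to SRXN1 GOLGA7 (0.972) and to GCLC the unnamed ENSG00000273568 (0.954). These values are the highest of 16680 genes over 8 libraries that fall into 4 media, so they largely describe the order of the media, and libraries of 1 medium are not independent points.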

How the data were processed

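The report covers 8 RNA-seq libraries of IGR-N91 aggregates, grouped by the labels' titles. Per the submitters' processing notes, the authors used bcl2fastq 2.17.1.14, cutadapt 1.9.1, TopHat2 2.1.0 and HTSeq 0.11.3 and deposited raw counts per Ensembl ID, with no normalization. The study's methods name hg19 and the processing notes hg38, and the table has no coordinates, so gene positions are RefSeq positions on GRCh38.p14. The annotation release and the strand setting are not given in the sources used here. Exposure to the media is given as 20 h in the protocol and as 24 h in the series' design text. Symbols came from GENCODE names, which matched 58611 of 60676 IDs. Total RNA libraries were made with a stranded kit.

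Counts were filtered with filterByExpr by group (minimum count 10, equal here to 0.757 CPM in both libraries of some group), scaled by TMM and fitted with edgeR 4.0.16 (robust quasi-likelihood) in 1 model of 4 groups, with 6 contrasts. Standard errors and 95% intervals came from the same fit. RPKM used the length of the Ensembl canonical transcript. DESeq2 1.42.0, RLE size factors, other filters, thinning to 7930765 reads, a replicate block, fits of only the libraries compared, a rule by adjusted p alone and fits leaving out each library were alternatives. The fit was tested on simulated data. Genes named beyond the 9 were, per list and medium, up to 3 called genes highest and 3 lowest by fold change, and the nearest by correlation. Some list and marker genes are not reported here. The 9 genes, the lists and the tests were chosen with earlier results of these data known. Intervals cover the spread between libraries, and the 3-read floor covers counting error only.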

Additional observations from a re-analysis of the deposited data

How the results depend on the processing

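With 2 libraries per group the spread rests on few degrees of freedom, and SRXN1, OSGIN1, MAFK and NQO2 have low counts, for SRXN1 beside a large overlap with another gene. Of 288 gene counts recomputed, 270 stayed within 1.5 times the reported count. By adjusted p alone the counts of NRF2 genes were 5 in E8-cSGcm and 4 in E15.5-mSGcm against control, 5 in E8-cDRGcm against E8-cSGcm and 6 in E15.5-mSGcm against E8-cSGcm. By the same rule the counts of other pathway genes were 37, 50 and 45 in E8-cSGcm, E8-cDRGcm and E15.5-mSGcm against control, then 33 in E8-cDRGcm against E8-cSGcm and 60 and 62 in E15.5-mSGcm against E8-cSGcm and E8-cDRGcm. For all genes they were 5213, 8261, 6305, 5037, 8304 and 8767 in the same order, and DESeq2 called 851 in E8-cSGcm against control and 697 in E8-cDRGcm against E8-cSGcm. The changes in count follow from dropping the fold threshold, and for DESeq2 the cause was not tested.

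Leaving out 1 library at a time gave 2 to 3 NRF2 genes called in E8-cSGcm, 5 to 6 in E8-cDRGcm and 0 in E15.5-mSGcm against control. A replicate block gave 3, 6 and 0 called genes against control and 2, 3 and 7 between media, the counts of the fit without it. Deviations of same-numbered libraries correlated at -0.044 to 0.042 over 6 pairs of groups, so the numbers only name libraries. A filter of 10 counts in every library removed SRXN1 and OSGIN1, which then have no value.

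Of the members' 54 fold changes 8 changed sign, in 12 alternative fits, none with an adjusted p under 0.05 in either fit, and the cause was not tested. Thinning turned HMOX1 in E15.5-mSGcm to 0.05 and SRXN1 in E8-cSGcm to -0.30, and a filter at 1 count turned GCLM in E15.5-mSGcm to -0.01. Over the fits leaving out 1 library, log2 fold changes against control ranged from -0.03 to 0.067 for NFE2L2 in E8-cSGcm, from -0.04 to 0.11 for GCLM in E15.5-mSGcm and from -0.052 to 0.33 for GCLC in E8-cDRGcm. They ranged from -0.013 to 0.44 for SRXN1 in E8-cSGcm, from -0.51 to 0.17 for SRXN1 and from -0.12 to 2.50 for OSGIN1 in E15.5-mSGcm. GCLC in E15.5-mSGcm against E8-cDRGcm ranged from -0.20 to 0.19.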
